A study of Mus musculus with 136 samples.

Results

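Ccl2, Ccl7 and Ccl12 encode secreted CC chemokines that draw monocytes out of blood and marrow and into inflamed tissue. They were taken by name from the gene column of the deposited table, so no measured value chose them, and they make up 3 of its 15196 genes. The study measured RNA in mouse bone marrow-derived macrophages, grown from marrow for 6 days with the macrophage growth factor M-CSF, to compare the roles of the NF-kB subunit p50 and of the nuclear IkB proteins when macrophages are activated. Of 136 libraries, 113 held chromatin-associated RNA, which is mostly newly made transcript, and 23 held polyA RNA. In the main experiment, macrophages from wild-type (C57/B16) mice and from Nfkb1-/-, Nfkbiz-/-, Bcl3-/- or Nfkbid-/- mice were left unstimulated or given lipid A, the portion of endotoxin sensed by the Toll-like receptor TLR4, for 0.5, 1, 2 or 6 h. Each knockout had its own wild-type libraries at the same 5 times, with 3 libraries per genotype and time in the Nfkb1 and Nfkbid series and 2 in the Nfkbiz and Bcl3 series. Chromatin RNA was also taken from macrophages given TNFa for up to 6 h, and from macrophages pretreated with an ERK inhibitor or its solvent DMSO and given lipid A for 0, 15, 30 or 60 min. PolyA RNA came from macrophages given lipid A or TNFa, from macrophages overexpressing IkBz and their controls, and from J2 BMDM of wild-type, Nfkb1-/- or Nfkb1-/-, Nfkb2-/- genotype before and after 2 h with lipid A. The labels do not give the deleted exons, the promoter used for overexpression, the age or sex of the mice, or whether replicates were separate animals, so p-values measure only the spread between these libraries.

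The 3 proteins are ligands of CCR2, the receptor that lets inflammatory monocytes leave the marrow, and Ccl7 also acts on other CC receptors. Macrophages that sense endotoxin switch these genes on through NF-kB, and interferon released by the same cells can add to their expression. Nfkb1 encodes p105 and its product p50, Nfkbiz encodes IkBz, Bcl3 encodes the protein of the same name and Nfkbid encodes IkBNS, and the last 3 are nuclear IkB proteins that bind p50.

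The 3 genes lie close together on chromosome 11. In the mm9 coordinates of the deposited table, Ccl2 spans chr11:81849079-81850954, Ccl7 spans chr11:81859214-81861025 and Ccl12 spans chr11:81915347-81916901. No other gene span of the table overlaps any of them. Ccl11 lies between Ccl7 and Ccl12, and Ccl8 and Ccl1 follow Ccl12. In GENCODE transcripts each member has 3 exons, with a spliced length of 813 bases and 148 codons for Ccl2, 801 bases and 97 codons for Ccl7, and 537 bases and 104 codons for Ccl12. Because the genes are related, their transcripts were compared for stretches that could let a read match more than 1 of them, and 0 words of 50 bases were shared by any pair. The longest identical run of each pair, shown in capitals because all of it is shared, had 23, 17 and 11 bases.
Ccl2 and Ccl7: CTCTCACTGAAGCCAGCTCTCTC
Ccl2 and Ccl12: TCTGTGCTGACCCCAAG
Ccl7 and Ccl12: CTGCTCATAGC
The RefSeq promoter table used here held 1 of the 3 members, Ccl12. Its 250 bases before the transcription start, in build GRCm38.p6 at chr11:82101595-82101844 on the plus strand, are shown because no other member had an entry, with a TATAAA match in capitals.
Ccl12 promoter: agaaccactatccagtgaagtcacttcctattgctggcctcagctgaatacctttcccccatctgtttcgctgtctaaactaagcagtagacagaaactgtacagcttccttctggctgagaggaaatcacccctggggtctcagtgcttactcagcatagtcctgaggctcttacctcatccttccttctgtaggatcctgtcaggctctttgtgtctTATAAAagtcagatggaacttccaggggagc
The TATAAA match lies 31 to 26 bases before the start, a word held by 12.4% of 32851 promoters and searched for after the sequence had been read. On either strand, the loose NF-kB motif, GGG and CC with 5 bases between (45.8% of promoters) and the kappaB consensus (23.2%, which overlaps that word) had 0 matches. The AP-1 motif TGANTCA (6.75%), the interferon element, GAAA repeated after 2 bases (2.98%), and the C/EBP motif TTNNGNAA (36.8%) also had 0 matches, which says only that these letters are not in this window.

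Depth recovered from the deposited values ran from 7.86 to 45.3 M reads in the chromatin libraries. In the 4 knockout series, stimulated libraries held at least 53 reads of Ccl2, 146 of Ccl7 and 6 of Ccl12, while unstimulated ones held as few as 29, 15 and 1. All 5 macrophage markers in the table (Csf1r, Mertk, Lyz2, Fcgr1 and Cd14) had a median of at least 1 RPKM over the chromatin libraries, whereas 0 of the 5 neutrophil markers did. Replicate 1 of the Nfkbid series stood apart in all 10 of its libraries: the nuclear RNA Malat1 was at 6.92 to 19.4 RPKM there and at 823 to 1640 RPKM in replicates 2 and 3. Its summed macrophage markers ran from 1141 to 5206 RPKM against 39.9 to 152 RPKM, and its neutrophil markers from 13.6 to 41.8 RPKM against 0.130 to 0.635 RPKM. These 10 libraries are labelled as chromatin RNA and counted as such, and whether they hold the same kind of RNA as the others cannot be told from the labels. Wild-type results are given with and without it. Of the deleted genes, Nfkb1 over its whole span was at 0.703 to 21.3 RPKM in the Nfkb1-/- libraries and at 1.33 to 24.0 RPKM in their wild type, and Bcl3 was at 8.79 to 40.9 RPKM in the libraries labelled Bcl3-/- and at 2.20 to 18.1 RPKM in theirs. Bcl3 RNA thus ran against its label. Reads over a whole span cannot check a deletion of part of a gene, and Nfkbiz, Nfkbid and Nfkb2 were not analysed here. In bulk RNA, fewer cells that express a gene and less RNA per cell cannot be told apart.

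Lipid A raised all 3 chemokines in wild-type macrophages within 0.5 h and kept them above the unstimulated level to 6 h. Over the 10 wild-type libraries, Ccl2 ran from 0.507 to 27.7 RPKM (median 7.43) without stimulus and from 32.1 to 347 RPKM (median 94.7) at 0.5 h. Its median was 95.2 RPKM at 1 h, 53.5 RPKM at 2 h and 47.3 RPKM at 6 h. No library at 0.5 or 1 h was as low as the highest unstimulated one, but at 2 and 6 h the lowest libraries, at 8.57 and 15.1 RPKM, fell within the unstimulated range. Ccl7 had medians of 4.51, 51.9, 61.7, 47.9 and 59.8 RPKM at the 5 times, with an unstimulated range of 0.272 to 19.98 RPKM and a 6 h range of 16.0 to 586 RPKM. Ccl12 was the weakest of the 3, with medians of 0.328, 7.31, 4.45, 8.20 and 9.77 RPKM. Its unstimulated range was 0.0422 to 1.77 RPKM and its 6 h range 3.17 to 152 RPKM, so the groups at 0 and 6 h did not overlap. The share of all genes without overlap between wild-type times is not given here.

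The highest value at each stimulated time came from Nfkbid replicate 1, except for Ccl12 at 0.5 h. Without that replicate the highest Ccl2 values were 135, 172, 81.3 and 81.1 RPKM at 0.5, 1, 2 and 6 h, the highest Ccl7 values 70.3, 108, 69.5 and 119 RPKM, and the highest Ccl12 values 13.0, 8.46, 12.2 and 14.1 RPKM.

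**Figure D1:**
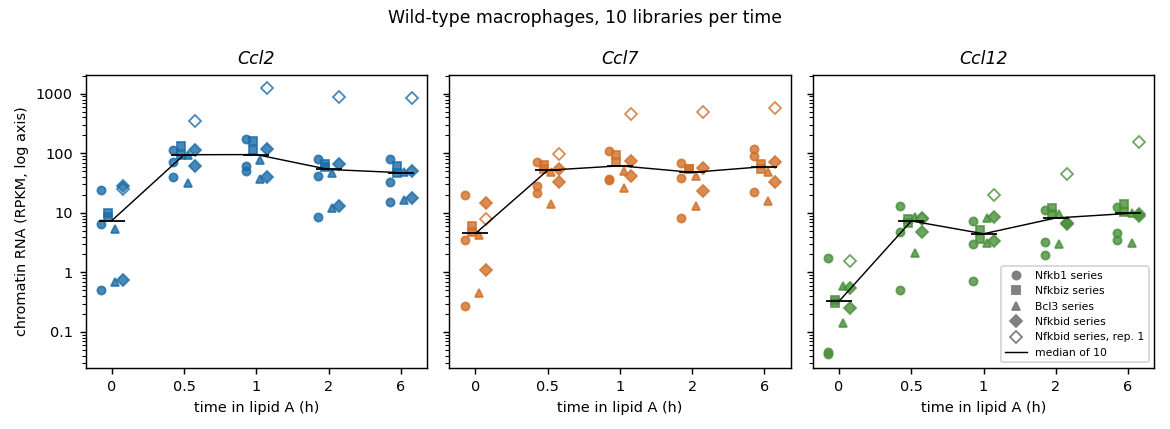
Chromatin RNA of Ccl2, Ccl7 and Ccl12 (RPKM, log axis) against time in lipid A in wild-type macrophages, with 1 point for each of 10 libraries per time, markers by series and a line through the medians. The Ccl7 medians stay between 47.9 and 61.7 RPKM from 0.5 h while those of Ccl2 go from 95.2 RPKM at 1 h to 53.5 RPKM at 2 h, and the open points of Nfkbid replicate 1 lie above the rest from 1 h.

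A linear model with series as a term (limma on log2(RPKM + 0.5), called at a Benjamini-Hochberg adjusted p under 0.05 and a change of at least 2-fold) called 12 of 12 member and time combinations higher than 0 h. Over all 5685 genes tested, 4.75%, 5.36%, 8.23% and 7.58% were called higher at 0.5, 1, 2 and 6 h, and 14%, 15.8%, 17.2% and 13.7% were called lower. Centring each library on its median turned these into 9.29%, 10.3%, 13.3% and 11.6% higher and 2.08%, 4.01%, 6.65% and 5.59% lower, with the 12 member calls in place. The median of all genes stood at -0.47, -0.39, -0.40 and -0.35 (log2) at the 4 times. Ccl2 rose 14.1-fold at 0.5 h (log2 change 3.82, SE 0.66, limma adjusted p = 3.1e-06), 16.7-fold at 1 h, 7.51-fold at 2 h and 7.76-fold at 6 h. Ccl7 rose 10.04-fold, 15.9-fold, 10.3-fold and 14.9-fold at the same times (SE 0.54 on the log2 scale). Ccl12 rose 6.15-fold, 5.69-fold, 8.56-fold and 11.6-fold (SE 0.46). All folds are on the log2(RPKM + 0.5) scale, which understates those of Ccl12, whose unstimulated level is near the added 0.5. Without Nfkbid replicate 1 the 12 calls held, with folds of 14.2, 14.8, 6.35 and 6.63 for Ccl2, 9.85, 13.8, 8.50 and 12.5 for Ccl7 and 6.41, 5.35, 7.70 and 9.43 for Ccl12.

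Between consecutive times, 0 of 9 member steps passed the test, with 2.50% of all genes lower and 3.10% higher from 0.5 to 1 h, 4.45% and 5.82% from 1 to 2 h, and 2.25% and 3.22% from 2 to 6 h. Ccl2 came nearest, with a log2 difference of -1.15 from 1 to 2 h (SE 0.66, limma adjusted p = 0.21). Without Nfkbid replicate 1 that step was called (log2 -1.22, limma adjusted p = 0.039), beside 5.72% of genes lower and 7.41% higher. Without the whole Nfkbid series it was not (log2 -1.22, limma adjusted p = 0.051). It was also called with the replicate number as a term (limma adjusted p = 0.0010), beside 4.64% lower and 6.00% higher.

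Because RPKM is per length, the 3 genes could be ranked within each library. Both Ccl2 and Ccl7 were above Ccl12 in 10 of 10 wild-type libraries at every time, by means of 2.18 to 4.31 (log2(RPKM + 0.5)) for Ccl2 and of 2.19 to 3.67 for Ccl7. Exact sign-flip tests, two-sided and adjusted over 15 tests, gave an adjusted p = 0.00266 for each of these. Before adjustment each sign-flip p was 0.00195, the smallest that 10 libraries allow. Ccl2 was above Ccl7 at 0.5 h by 1.06 ± 0.32 (SD, n = 10; 10 of 10 libraries; exact sign-flip adjusted p = 0.00266). At 2 h the same difference was 0.11 ± 0.41 (8 of 10 libraries; exact adjusted p = 0.44), and at 6 h it was -0.37 ± 0.67, with Ccl2 the higher gene in 4 of 10 libraries (exact adjusted p = 0.12). Ccl2 and Ccl7 could therefore not be ordered beyond their spread at 2 and 6 h. Without Nfkbid replicate 1, 13 of the 15 orders were again called, and Ccl2 minus Ccl7 was 0.98 at 0.5 h, 0.03 at 2 h and -0.47 at 6 h (exact sign-flip adjusted p = 0.0053, 0.86 and 0.050).

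The size of the excess of Ccl2 differed between 0.5 and 6 h. This comparison was added after the data were seen, at the times when the mean excess over Ccl7 was highest and lowest. The p-values for it take no account of that choice. From 0.5 to 6 h the excess of Ccl2 over Ccl7 fell by 1.43 (log2) and was lower at 6 h in 10 of 10 same-numbered pairs. Permutation of the time labels, which ignores the pairs, gave p = 1e-05, the smallest that 100000 resamples can give, and 3e-05 adjusted over 3 tests. The excess of Ccl2 over Ccl12 fell by 1.78, again in 10 of 10 pairs (permutation adjusted p = 3e-05). The excess of Ccl7 over Ccl12 differed by -0.35, lower in 8 of 10 pairs (permutation adjusted p = 0.36). Exact sign flips of the same-numbered pairs gave larger adjusted p for the 2 shifts of Ccl2, 0.0029 each, and 0.076 for that of Ccl7 over Ccl12. With 10 pairs the smallest sign-flip p before adjustment is 0.0020. Without Nfkbid replicate 1 the 3 shifts were -1.44, -1.66 and -0.21 (permutation adjusted p = 0.000105, 0.000105 and 0.58).

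In the Nfkbiz series, which asked what IkBz is needed for, Ccl2 and Ccl7 were lower without IkBz at 2 and 6 h, by about the same factor, while no difference in Ccl12 passed the test. At 2 h Ccl2 stood at 67.3 and 59.7 RPKM in wild type and at 9.52 and 23.0 RPKM in Nfkbiz-/- macrophages. At 6 h the values were 61.6 and 46.1 RPKM against 8.78 and 17.4 RPKM. Both knockout libraries lay well below both wild-type ones at each of these times. Ccl7 stood at 54.4 and 54.8 RPKM in wild type and at 8.21 and 16.2 RPKM in the knockout at 2 h. At 6 h its values were 53.5 and 66.1 RPKM against 9.84 and 19.9 RPKM, again with no overlap.

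The fitted differences were 4.16-fold lower for Ccl2 at 2 h (log2 -2.06, SE 0.52, limma adjusted p = 0.049) and 4.17-fold lower at 6 h (limma adjusted p = 0.018). Ccl7 was 4.57-fold lower at 2 h (log2 -2.19, SE 0.47, limma adjusted p = 0.020) and 4.13-fold lower at 6 h (limma adjusted p = 0.010). These were 4 of 15 member and time combinations called, against 0%, 0%, 0.553%, 1.19% and 3.62% of all 4885 genes called lower and 0%, 0%, 0.123%, 0.184% and 1.84% called higher at the 5 times. At 6 h centring each library on its median gave 1.86% lower and 3.38% higher, with the same 4 member calls. The 4 calls rest on few libraries: leaving out wild-type replicate 1 or wild-type replicate 2 left 0, leaving out knockout replicate 1 left 3, without Ccl2 at 2 h (limma adjusted p = 0.13), and leaving out knockout replicate 2 gave 6, the added ones being Ccl2 and Ccl7 at 0 h. Over all genes and the 5 times, lower calls numbered 262 with all libraries and 87, 296, 155 and 247 in these 4 runs. Without knockout replicate 1 the folds were 2.72 and 3.01 for Ccl2 and 3.298 and 2.95 for Ccl7 at 2 and 6 h. Without knockout replicate 2 they were 6.38 and 5.79 for Ccl2 and 6.33 and 5.80 for Ccl7, and without a wild-type replicate they ran from 3.62 to 4.81. A spread shared by all 4 series, wider than that of the Nfkbiz series, also left 0, and over 15 alternatives the adjusted p of Ccl7 at 2 h ran from 0.0024 to 1.00 (limma).

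At the earlier times the Nfkbiz-/- libraries were also lower, but no difference passed. Unstimulated Ccl2 was at 8.47 and 10.1 RPKM in wild type and at 0.996 and 4.44 RPKM in the knockout, and unstimulated Ccl7 at 4.70 and 6.02 RPKM against 0.573 and 2.88 RPKM. The log2 differences were -1.84 for Ccl2 (95% confidence interval -2.97 to -0.71) and -1.61 for Ccl7 (-2.62 to -0.60), each with a limma adjusted p of 0.93. They ranked 2 and 3 from the lowest of 4885 genes at 0 h, a time at which 0% of genes were called, while an unadjusted p under 0.05 with a 2-fold difference was met by 22 genes lower and 6 higher. At 0.5 h Ccl2 was at 135 and 94.5 RPKM against 62.9 and 73.0 RPKM (log2 -0.73), and Ccl7 at 62.9 and 55.0 RPKM against 27.5 and 34.4 RPKM (log2 -0.92). At 1 h Ccl2 was at 164 and 114 RPKM against 60.1 and 105 RPKM (log2 -0.78), and Ccl7 at 92.4 and 72.5 RPKM against 34.8 and 53.1 RPKM (log2 -0.92). The groups did not overlap for 3 members at 0, 0.5 and 2 h and for 2 members at 1 and 6 h, but 21.9%, 25.1%, 29.2%, 38.0% and 52.4% of all genes also lay wholly lower in the knockout at the 5 times.

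No difference in Ccl12 was called in the same libraries. At 2 h both knockout libraries, at 5.34 and 8.53 RPKM, were below both wild-type ones, at 12.2 and 9.72 RPKM (log2 -0.65, 95% confidence interval -1.24 to -0.06, limma adjusted p = 0.27). At 6 h it was at 9.76 and 15.0 RPKM in the knockout and at 10.2 and 14.1 RPKM in wild type, so the groups overlapped (log2 0.01, -0.58 to 0.61). Whether Ccl12 responded less than Ccl2 or Ccl7 was not tested across libraries. The summed macrophage markers were at 44.1 to 62.1 RPKM in wild type and 39.4 to 58.6 RPKM in the knockout at 2 h, and at 41.2 to 47.0 against 33.4 to 45.2 RPKM at 6 h.

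**Figure D2:**
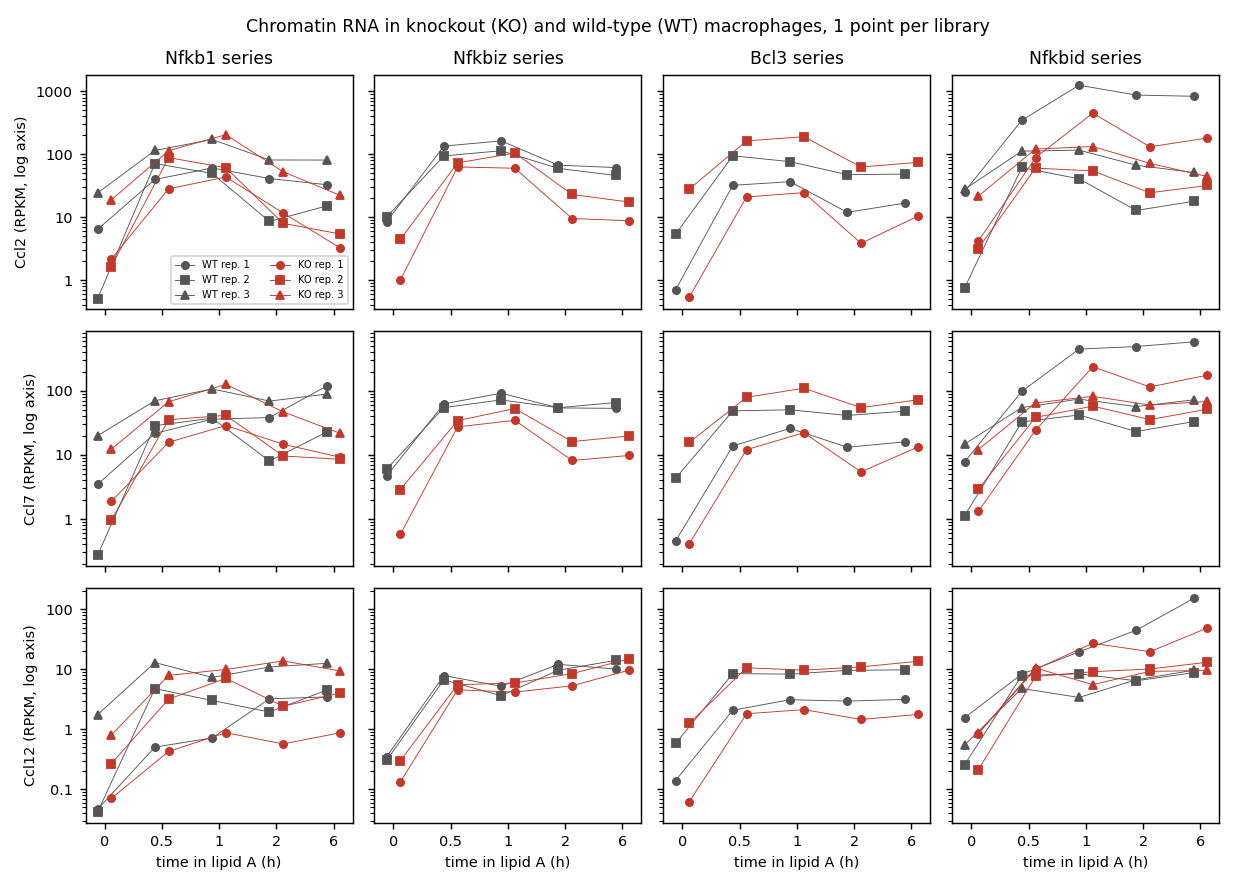
Chromatin RNA of each gene (rows, RPKM on a log axis) against time in lipid A in the 4 knockout series (columns), with 1 point per library, grey for wild type, red for knockout and lines joining libraries of 1 replicate number, and times evenly spaced. In the Nfkbiz series at 2 h, Ccl2 lies at 9.52 and 23.0 RPKM in the knockout against 59.7 and 67.3 RPKM in wild type, while in the Bcl3 series the libraries of replicate 1 lie below those of replicate 2 under both labels.

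Induction itself was not lost in Nfkbiz-/- macrophages. Relative to its own 0 h, Ccl2 rose 25.1-, 29.4-, 5.64- and 4.74-fold in the knockout and 11.7-, 14.1-, 6.57- and 5.53-fold in wild type at 0.5, 1, 2 and 6 h. Ccl7 rose 16.4-, 22.9-, 6.33- and 7.62-fold in the knockout and 10.2-, 14.1-, 9.46- and 10.3-fold in wild type. Ccl12 rose 7.79-, 7.71-, 10.2- and 17.7-fold in the knockout and 9.41-, 5.90-, 13.7- and 15.1-fold in wild type. All 12 changes were called higher in each genotype, against 6.96%, 8.19%, 11.4% and 10.2% of all genes in the knockout and 6.39%, 7.68%, 10.7% and 9.29% in wild type.

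When the change from 0 h was compared between genotypes, 0 of 12 member differences were called (limma), against 0%, 0.123%, 0.491% and 1.82% of genes lower and 0%, 0%, 0.0819% and 1.13% higher at 0.5, 1, 2 and 6 h. The difference in change was -0.22 for Ccl2 at 2 h (log2, 95% confidence interval -1.82 to 1.38) and -0.58 for Ccl7 (-2.01 to 0.85). These intervals include both no difference and a difference of more than 2-fold, so the data do not settle whether the lower level at 2 h exceeds the lower start.

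In the Nfkb1 series the chemokines were lower without p50 at 6 h in every same-numbered pair. The share of all genes that were lower in every pair is not given here. Libraries of 1 group spread too widely for a call in the fit without a replicate term. Fits with that term called Ccl7, or Ccl2 and Ccl7, at 6 h. At 6 h Ccl2 was at 32.9, 15.1 and 81.1 RPKM in wild-type replicates 1, 2 and 3 and at 3.23, 5.39 and 22.2 RPKM in Nfkb1-/- replicates 1, 2 and 3. Ccl7 was at 119, 22.8 and 89.4 RPKM in wild type and at 9.21, 8.56 and 21.8 RPKM in the knockout. Ccl12 was at 3.48, 4.53 and 12.7 RPKM against 0.882, 4.05 and 9.42 RPKM. The groups did not overlap for Ccl7 alone, by a gap of about 1 RPKM, as for 4.05% of all genes, while Ccl2 and Ccl12 overlapped.

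Within pairs of 1 number the log2 ratios of knockout to wild type at 6 h were -3.35, -1.48 and -1.87 for Ccl2, -3.70, -1.41 and -2.04 for Ccl7, and -1.98, -0.16 and -0.43 for Ccl12. Without a replicate term, 0 of 15 combinations were called, against 0%, 0.0663%, 0.597%, 0.376% and 0.221% of 4523 genes lower at the 5 times and 0%, 0%, 0.0442%, 0% and 0.0884% higher. Before adjustment, 1 combination had a limma p under 0.05 with a 2-fold difference, Ccl7 at 6 h, which was lower, beside 36 genes lower and 30 higher at that time. The fitted differences at 6 h were -2.14 for Ccl2 (log2, SE 1.07, limma adjusted p = 1.00), -2.33 for Ccl7 (SE 1.01, limma adjusted p = 0.97) and -0.69 for Ccl12. With the replicate number as a term for the series, 1 was called, Ccl7 at 6 h (limma adjusted p = 0.027), with 0.619% of genes lower and 0.509% higher. With the number as a term at each time, 2 were called, Ccl2 (limma adjusted p = 0.0023) and Ccl7 (limma adjusted p = 0.00078) at 6 h, with 0.906% of genes lower and 0.884% higher. With the series term and centred libraries the same 2 were called, with 0.884% lower and 0.354% higher. Macrophage markers summed to 39.6 to 43.9 RPKM in wild type and 41.4 to 60.3 RPKM in the knockout at 6 h.

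At 0.5 and 1 h the Nfkb1-/- and wild-type libraries interleaved. Within pairs, Ccl12 was lower in the knockout in 3 of 3 at 0.5 h (log2 ratios -0.24, -0.58 and -0.71). It was higher in the knockout in 3 of 3 pairs at 1 h (0.29, 1.23 and 0.44). Ccl2 at 0.5 h was at 39.8, 71.4 and 115 RPKM in wild type and at 28.3, 88.7 and 114 RPKM in the knockout. Ccl7 at 1 h was at 36.3, 37.6 and 108 RPKM against 28.9, 41.6 and 127 RPKM. At 2 h Ccl2 was lower in the knockout in 3 of 3 pairs, from 41.2, 8.57 and 81.3 RPKM to 11.7, 7.98 and 52.8 RPKM, but by little in the second pair. Ccl12 in replicate 1 was near the count limit, with 1 read or none at 0 h in each genotype and 6 to 16 reads at 0.5 and 1 h.

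The Bcl3 series gave no call, and its replicate pairs pointed in opposite directions. At 2 h Ccl2 was at 11.9 and 47.4 RPKM in wild type and at 3.85 and 62.9 RPKM in the libraries labelled Bcl3-/-. Ccl7 at 2 h was at 13.2 and 41.5 RPKM against 5.44 and 55.0 RPKM, and Ccl12 at 2.97 and 9.68 RPKM against 1.47 and 11.04 RPKM. At all 15 member and time combinations the library labelled Bcl3-/- was the lower in pair 1 and the higher in pair 2, so the groups overlapped throughout. limma called 0 of 15, with 0 also at an unadjusted p under 0.05 and a 2-fold difference, while 0% of 4740 genes were called in either direction at each time. Before adjustment, 0 to 9 genes were lower and 2 to 16 higher at a time.

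The Nfkbid series also gave 0 of 15 calls by limma, against 0% of 5367 genes. Before adjustment, 0 members and 1 of all genes, higher at 1 h, had a limma p under 0.05 with a 2-fold difference. At 2 h Ccl2 was at 876, 12.8 and 67.1 RPKM in wild type and at 132, 24.5 and 71.8 RPKM in Nfkbid-/- macrophages. Ccl7 was at 495, 23.3 and 57.0 RPKM against 116, 35.7 and 60.2 RPKM, and Ccl12 at 6 h at 152, 8.84 and 9.70 RPKM against 49.1, 13.2 and 9.63 RPKM. Replicate 1 was lower in the knockout at 13 of 15 member and time combinations, all but Ccl12 at 0.5 and 1 h. The fitted difference was below 0 in 13 of 15 combinations with all libraries and in 0 of 15 without replicate 1, where it ran from 0.04 to 0.60 (log2). The sign of those 13 differences thus depended on the replicate that stood apart.

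**Figure D3:**
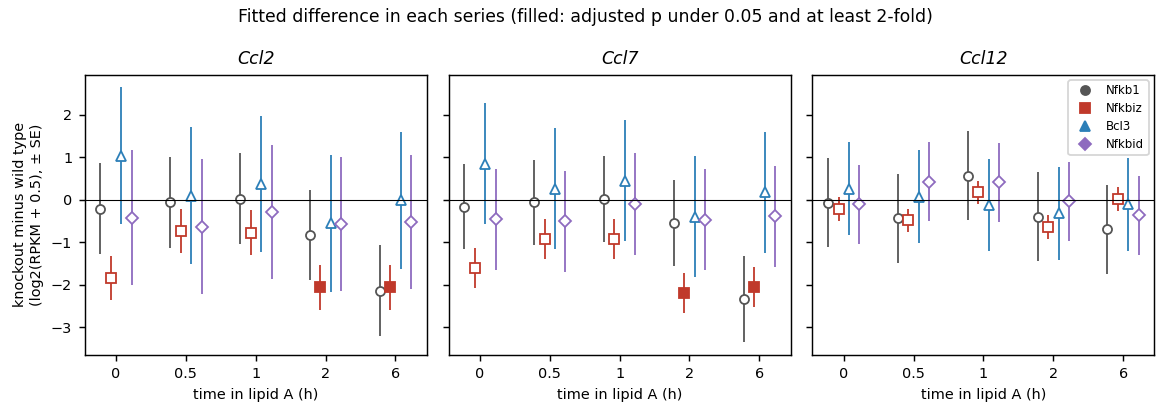
Fitted knockout minus wild-type difference (log2(RPKM + 0.5), points with SE bars) of each gene at 5 times in the 4 series, filled where called in the fit without a replicate term. Only Ccl2 and Ccl7 in the Nfkbiz series at 2 and 6 h are filled, at -2.05 to -2.19, and Ccl2 and Ccl7 in the Nfkb1 series at 6 h lie at -2.14 and -2.33 with bars about 2 times as long.

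A test of the difference between knockouts found none. In 1 fit of the 4 series, the effect in the Nfkbiz series minus that in each other series was called for 0 of 36 member, time and series combinations (limma, 5991 genes), with 0% of genes called in either direction at 0.5 and 1 h. At 2 h 0.0167% were called lower and 0.0167% higher against the Nfkbid series, and 0% against the others. At 6 h 0.0668%, 0.0835% and 0.134% were lower, and 0.0334% higher, against the Nfkb1, Bcl3 and Nfkbid series. At 2 h the Ccl7 effect differed from that in the Nfkb1 series by -1.64 (log2, 95% confidence interval -5.11 to 1.83), and from those in the Bcl3 and Nfkbid series by -1.79 and -1.72. For Ccl2 the differences at 2 h were -1.23, -1.50 and -1.48. Without Nfkbid replicate 1 those from the Nfkbid series were -2.56 for Ccl2 and -2.53 for Ccl7, and 0 of 36 were called. These intervals are wide, so the calls in the Nfkbiz series are not shown to be particular to it.

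PolyA RNA of the J2 BMDM addressed whether p52, the product of Nfkb2, stands in for p50. Ccl2 went from 169 to 1790 RPKM over 2 h of lipid A in wild type, from 229 to 927 RPKM in Nfkb1-/- cells, and from 129 and 149 to 1700 and 1405 RPKM in Nfkb1-/-, Nfkb2-/- cells. Ccl7 went from 21.9 to 385 RPKM in wild type, from 42.7 to 185 RPKM in the single knockout and from 13.96 and 20.1 to 162 and 254 RPKM in the double knockout. Every stimulated library was above every unstimulated one for both genes. The share of all genes for which this held is not given here. Ccl12 went from 3.02 to 39.1 RPKM, from 2.35 to 22.7 RPKM, and from 0.529 and 0.661 to 1.50 and 18.7 RPKM, with the 2 stimulated double-knockout libraries 1 order of magnitude apart.

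With 1 library per time in 2 of the genotypes, the fit assumes that they vary like the double knockout, and it called 1 of 27 member comparisons, Ccl2 at 2 against 0 h in the double knockout (log2 3.48, SE 0.16, limma adjusted p = 0.031; 0.233% of 6436 genes higher and 0.0155% lower). The rise in wild type was 3.40 for Ccl2 (limma adjusted p = 0.083) and in the single knockout 2.01 (limma adjusted p = 0.16). At 2 h the single knockout differed from wild type by -0.95 for Ccl2 (log2, 95% confidence interval -1.59 to -0.31) and -1.05 for Ccl7 (-2.28 to 0.17), and the double knockout by -0.21 (-0.76 to 0.34) and -0.93 (-1.99 to 0.14), with limma adjusted p of 1.00 for all 4 and 0% of genes called. Bcl3 RNA was at 0.0386 to 0.143 RPKM in the double-knockout libraries and at 3.58 to 27.5 RPKM in the others, and its part in these values was not tested.

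PolyA RNA of macrophages given lipid A or TNFa, with 1 library per condition and no test, separated a sustained from a brief response. Under lipid A, Ccl2 was at 6.08, 167, 1594, 1374 and 877 RPKM at 0, 0.5, 1, 2 and 6 h. Under TNFa it was at 142 RPKM at 0.5 h, near the lipid A value, and then at 54.1, 14.7 and 3.87 RPKM. Ccl2 under lipid A was thus 1.18 times its TNFa level at 0.5 h, 29.4 times at 1 h, 93.3 times at 2 h and 227 times at 6 h, while 1.44%, 3.39%, 4.46% and 7.10% of genes were at least 2-fold higher with lipid A on the log2(RPKM + 0.5) scale. At 0.5 h TNFa brought Ccl2 to 23.3 times and Ccl7 to 11.04 times the unstimulated level, a time at which 2.44% of genes were at least 2-fold higher.

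Ccl7 under lipid A was at 0.842, 14.1, 179, 338 and 370 RPKM, and under TNFa at 9.29, 5.32, 0.995 and 0.177 RPKM from 0.5 h. Ccl12 under lipid A was at 1.15, 7.30, 17.4 and 137 RPKM from 0.5 h, and under TNFa at 1.49, 0.117, 0.618 and 3.44 RPKM. Ccl12 had its highest value at 6 h under each stimulus, under TNFa on low values in single libraries. Under TNFa Ccl2 and Ccl7 were highest at 0.5 h. The Ccl12 entry at 1 h under TNFa, 0.117 RPKM, equals the smallest step of that library, so it lies at the count limit. The unstimulated Ccl12 entry, 1.87 RPKM, equals 1 read per kilobase of a 536-base transcript with no scaling to depth, a filler that other genes without reads carry too, and was not taken as a level.

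In chromatin RNA under TNFa, the 3 genes were highest at 0.5 h and lowest at 1 h. Ccl2 was at 11.7, 20.4, 4.06, 8.77 and 5.76 RPKM at 0, 0.5, 1, 2 and 6 h, Ccl7 at 5.16, 7.28, 2.09, 4.30 and 2.80 RPKM, and Ccl12 at 0.338, 0.769, 0.180, 0.278 and 0.673 RPKM, the last from 5 to 28 reads. The values at 0.5 h were 1.75 times the unstimulated level for Ccl2, 1.41 times for Ccl7 and 2.28 times for Ccl12. At 0.5 h 8.63% of genes were at least 2-fold higher with TNFa on the log2(RPKM + 0.5) scale, and neither Ccl2 nor Ccl7 was among them. Ccl12 was below 1 RPKM in both libraries and so was not among the genes counted. At 1 h Ccl2 was 2.87-fold and Ccl7 2.47-fold below the unstimulated level, past a 2-fold limit that 1.56% of genes met. PolyA values are per exon length and chromatin values per gene span, so the levels of the 2 assays were not compared.

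**Figure D4:**
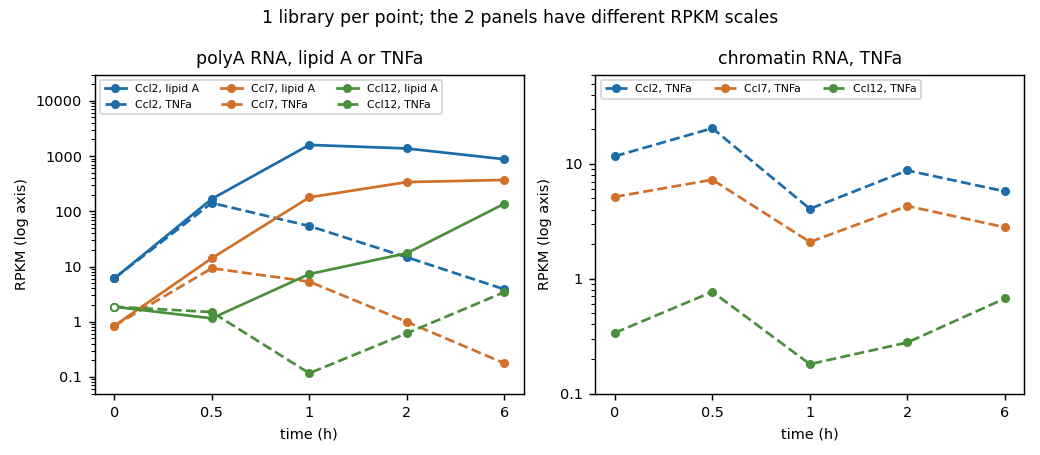
RPKM (log axis) of Ccl2, Ccl7 and Ccl12 against time, with 1 library per point: polyA RNA under lipid A (solid) or TNFa (dashed) on the left and chromatin RNA under TNFa on the right, with times evenly spaced. Ccl2 under TNFa falls from 142 RPKM at 0.5 h to 3.87 RPKM at 6 h while under lipid A it stays between 877 and 1594 RPKM from 1 h, and the open point marks the filler value of Ccl12.

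Macrophages overexpressing IkBz, measured in polyA RNA with 1 library per condition and no test, had less of all 3 chemokines than their controls. Ccl2 was at 579, 713 and 3599 RPKM in control cells without stimulus, after 2 h of TNFa and after 2 h of lipid A, and at 214, 179 and 1964 RPKM with IkBz. Ccl7 was at 319, 362 and 2795 RPKM against 81.9, 66.3 and 1236 RPKM. Ccl12 was at 10.8, 21.3 and 168 RPKM against 4.49, 2.98 and 33.1 RPKM. The control was higher in all 9 comparisons, by 2.70-, 3.99- and 1.83-fold for Ccl2, 3.89-, 5.46- and 2.26-fold for Ccl7 and 2.40-, 7.16- and 5.07-fold for Ccl12.

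Of all genes, 1.42%, 1.68% and 1.86% were at least 2-fold lower with IkBz in the 3 conditions. Lipid A still brought Ccl2 to 9.16 times and Ccl7 to 15.1 times their unstimulated level in overexpressing cells, against 6.22 and 8.78 times in controls. TNFa brought Ccl2 to 0.834 times in overexpressing cells and 1.23 times in controls. Summed neutrophil markers were at 135 to 189 RPKM in the overexpressing libraries and 12.3 to 16.7 RPKM in the controls, and macrophage markers at 12183 to 16948 against 7612 to 9904 RPKM. The part of these marker differences in the chemokine values was not tested.

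**Figure D5:**
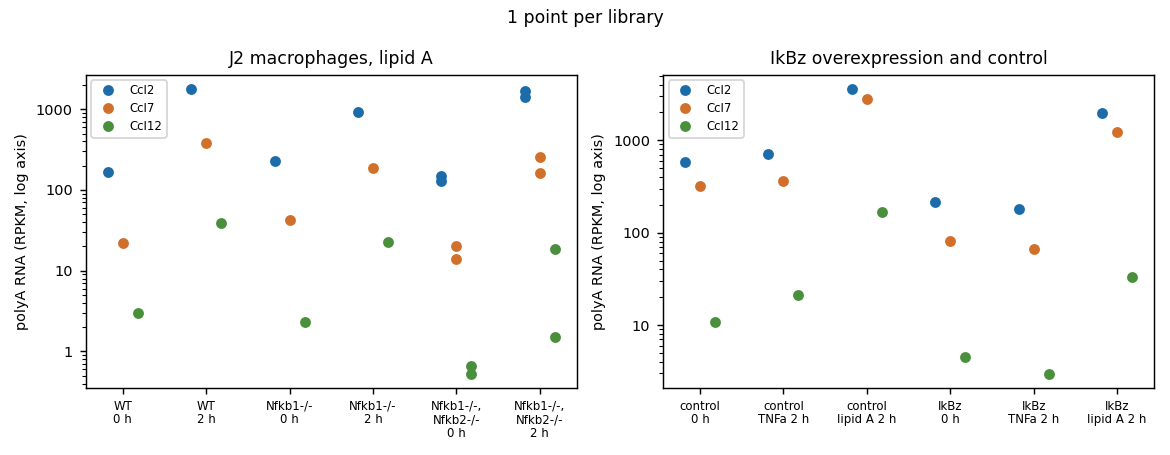
PolyA RNA (RPKM, log axis) with 1 point per library, in J2 BMDM of 3 genotypes at 0 and 2 h of lipid A (left) and in control and IkBz-overexpressing macrophages (right). Ccl2 is between 927 and 1790 RPKM in every stimulated J2 library, and each chemokine is lower with IkBz than in its control under the same condition.

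In the ERK inhibitor series, which asked whether early p50-dependent genes depend on ERK signalling, Ccl2 was at 0.0888, 1.98, 8.54 and 14.6 RPKM in DMSO-treated macrophages at 0, 15, 30 and 60 min of lipid A and at 0.0323, 1.02, 13.0 and 19.9 RPKM with the inhibitor. Ccl7 was at 0.0460, 0.304, 1.16 and 6.20 RPKM in DMSO and at 0.0167, 0.0896, 1.50 and 6.51 RPKM with the inhibitor, the unstimulated values resting on 1 or 2 reads. Both genes were lower with the inhibitor at 15 min, for Ccl7 on low counts, and higher at 30 and 60 min. At 60 min the values with the inhibitor were 1.36 times those with DMSO for Ccl2 and 1.05 times for Ccl7. Ccl12 was at 0.443, 0.822 and 0.385 RPKM in DMSO at 15, 30 and 60 min and at 0.313, 0.648 and 2.33 RPKM with the inhibitor. It was thus lower with the inhibitor at 15 and 30 min, at 0.71 and 0.79 times the DMSO values, on low counts. At 60 min it was higher (16 reads in DMSO, 93 with the inhibitor). At 60 min 4.60% of genes were at least 2-fold higher and 5.24% at least 2-fold lower with the inhibitor. With 1 library per condition these differences have no replicate check.

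Genes with the most similar course were found by Pearson correlation over the 40 group means of the 4 knockout series, each series centred, among 4074 other genes. This is a description over points that share libraries and times. Ccl2 was most like the cytokine gene Il1b (r = 0.940), the chemokine genes Ccl3 (0.935) and Ccl4 (0.924), the phosphatase gene Dusp1 (0.933) and the NF-kB inhibitor gene Nfkbia (0.927). Ccl7 was most like Ccl3 (0.940), Ccl4 (0.926), Dusp2 (0.926), Tnip3 (0.924) and Nfkbia (0.922). Ccl12 had another set at its head: Socs3, a feedback inhibitor of cytokine signalling (0.955), the interferon-induced chemokine gene Cxcl10 (0.954), the itaconate-making enzyme gene Acod1 (0.937), Tmem171 (0.934) and Tnip3 (0.926). Between members, r was 0.949 for Ccl2 and Ccl7, 0.879 for Ccl7 and Ccl12 and 0.746 for Ccl2 and Ccl12. Without Nfkbid replicate 1, 4 of the 5 genes named for Ccl2, 3 of those for Ccl7 and 4 of those for Ccl12 were still among the first 5, and r between members was 0.946, 0.871 and 0.736.

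Of 8 other CC chemokine genes tested in the Nfkbiz series at 2 h, 1 was called lower, Ccl3, at -2.16 (log2, SE 0.40, limma adjusted p = 0.0082), beside 1.19% of all genes. The list's median was -0.23 against -0.09 over all genes, and Ccl4 (-1.10), Ccl9 (-0.31), Ccl8 (-0.28), Ccl25 (-0.17), Ccl5 (-0.10), Ccl6 (-0.09) and Ccl22 (0.53) did not pass. In wild type at 2 h, 6 of 9 tested members of that list were called higher than at 0 h and 1 lower, Ccl6, beside 8.23% and 17.2% of all genes, or 13.3% and 6.65% with centred libraries. Ccl5 rose most among them (log2 7.53), followed by Ccl4 (3.84), Ccl3 (2.93), Ccl22 (1.91), Ccl8 (1.71) and Ccl9 (1.33). Among receptors of the 3 chemokines, Ccr2 was called lower in wild type at 2 h (log2 -1.51, SE 0.50, limma adjusted p = 0.0089), while Ccr1 (-0.43) was not. In the Nfkbiz knockout at 2 h Ccr2 was not called, at 0.58.

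Of 9 tested NF-kB primary response genes, 3 were called lower in the Nfkbiz knockout at 2 h, Ccl3, Tnip3 (-1.83) and Nfkbia (-1.35), with a list median of -1.10, and 4 were called lower at 6 h, beside 3.62% of all genes, or 1.86% with centred libraries. Of 8 CXC and CX3C chemokine genes 0 were called at 2 h, with Cxcl1 at -1.78 (limma adjusted p = 0.059), Cxcl9 at 1.17, Cxcl2 at -1.07 and Cx3cl1 at -0.83. Of 4 other monocyte recruitment genes 1 was called higher at 2 h, Vcam1 (1.56), an adhesion molecule. Of 4 TNF signalling genes 1 was called lower, the TNF receptor gene Tnfrsf1b (-2.40). Of 8 interferon-stimulated genes, 5 interferon-pathway components and 7 TLR4 signalling components, 0 were called at 2 h, with medians of 0.14, 0.03 and -0.19. Of 5 NF-kB subunits and IkB family genes 1, Nfkbia, was called lower.

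Of the neighbours on the chromosome, Ccl11 and Ccl1 were at low levels throughout and Ccl8 in most libraries. Ccl11, which sits between Ccl7 and Ccl12, did not exceed 0.299 RPKM in any of the 100 libraries of the knockout series, and Ccl1 did not exceed 0.0415 RPKM. Ccl8, another CC chemokine gene, reached 1 RPKM in 22 of 100 libraries and 14.1 RPKM at its highest. Its wild-type medians were 0.0251, 0.0667, 0.127, 1.45 and 0.823 RPKM at the 5 times. The Ccl11 medians were 0.0246, 0.0372, 0.0513, 0.0714 and 0.108 RPKM at the same times, too low to enter the test.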

How the data were processed

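The authors deposited 1 table of RPKM, reads scaled to gene length and library size, for 15196 genes and 136 libraries. HISAT2, SAMtools and mm9 are named in the submitters' processing notes, without versions. Per the labels' protocols, chromatin libraries were made with a stranded kit, and how reads were counted is not given in the sources used here. RPKM steps showed that chromatin values are per gene span and polyA values per exon length, and gave whole reads (tolerance 0.02) for all 339 chromatin values of the 3 genes. Depth was 7.86 to 45.3 M (mega) reads per chromatin library, ran from 14.95 to 63.07 M over J2 BMDM and overexpression samples, and was not recovered for the lipid A and TNFa polyA series.

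Differences came from limma 3.58.1 (R 4.3.3; lmFit and eBayes, trend on) on log2(RPKM + 0.5), with 1 mean per genotype and time, all libraries of a series together, for genes that reached 1 RPKM in a number of libraries no smaller than the replicates of a group. p-values were adjusted by Benjamini-Hochberg per comparison over all genes tested, and a call needed an adjusted p under 0.05 and at least a 2-fold difference. The wild-type fit had the series as a term. Orders were tested by exact sign flips or permutation (Python 3.11.15, numpy 2.4.6, scipy 1.17.1). Scripts were tested on simulated data. The genes, lists and tests were chosen with earlier results of these data known. Besides the 3 genes, the text names the 5 genes most correlated with each, the tested CC chemokines and receptors (1 gene of these lists is not reported here), at most 4 genes of each other list by their difference in the Nfkbiz series at 2 h, and chromosomal neighbours.

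Same-numbered wild-type and knockout libraries deviated together from their group means (correlation 0.610 to 0.918 in the Nfkb1 series, 0.447 to 0.731 in Nfkbiz, 0.267 to 0.761 in Bcl3 and 0.885 to 0.969 in Nfkbid), so the numbers were taken to pair libraries. That the numbers are shared comes from the labels.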

Additional observations from a re-analysis of the deposited data

Results flagged for a closer look

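Of 15 groups of 10 wild-type libraries (3 genes at 5 times), 6 held a library whose gap to the next, divided by the range of the group on the log2(RPKM + 0.5) scale, passed the 95% critical value of Dixon's test, which chance passes in about 1 of 20 groups. All 6 were the wild-type library of Nfkbid replicate 1, at 1257 RPKM of Ccl2 at 1 h, 876 RPKM at 2 h and 838 RPKM at 6 h, 451 RPKM of Ccl7 at 1 h and 495 RPKM at 2 h, and 152 RPKM of Ccl12 at 6 h. The same replicate had the low Malat1 and the high marker sums given with the depth of the libraries, and their part in these values was not tested.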

How the results depend on the processing

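The 12 wild-type changes from 0 h stayed called under all 12 alternatives run. With the replicate block, calls went from 0 to 1 in the Nfkb1 series, and to 2 with the block at each time or the block with centring. The block also gave 1 call among the wild-type steps, as did leaving out Nfkbid replicate 1, and it left the 4 Nfkbiz calls in number. In the Nfkbiz series no filter gave 2 calls, each time fitted alone 2, and a spread shared by the 4 series 0, while leaving out 1 replicate of a genotype at all times gave 0 to 6. Among the J2 comparisons, no filter gave 5 calls and the replicate block within the double knockout 8. The J2 block left fewer residual degrees of freedom than the main J2 fit, all of them from the double knockout. The share of all genes called is not given here for no filter, each time fitted alone or the J2 block. Whether the changed counts under these settings are particular to the chemokines therefore cannot be told. With the block, Ccl7 in the double against the single J2 knockout at 2 h turned from 0.13 to -0.16 (log2). Leaving out 1 such replicate at a time, Ccl12 ran from -1.35 to 0.068 in the Nfkb1 series at 6 h, from -0.065 to 0.40 in the Nfkbiz series at 1 h and from -0.28 to 0.31 at 6 h. For the change from 0 h in the Nfkbiz series it ran from -0.47 to 0.028 for Ccl2 at 2 h, from -0.61 to 0.17 for Ccl2 at 6 h and from -0.037 to 0.50 for Ccl12 at 6 h. The cause of these shifts was not tested. Chosen after seeing the data were the block with centring, the J2 block, and the correlations without Nfkbid replicate 1. So were the tests of steps, of changes from 0 h and of shifts in the excess of 1 gene over another, and their alternatives.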
